A study of Mus musculus with 8 samples.

Results

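Left ventricles of male C57BL/6N mice fed the SFA-EAA diet were compared between transverse aortic constriction (TAC), in which the aorta is narrowed so that the ventricle pumps against a higher pressure, and a sham operation. The comparison rests on 4 of the 8 libraries of the series: 2 of sham SFA-EAA and 2 of TAC SFA-EAA, assigned by their titles. The SFA-EAA diet is one whose casein was exchanged for free essential amino acids to the extent of 93.5%. All mice were 8 weeks old at the start, and ventricular RNA was extracted 4 weeks after sham or TAC. The other 4 libraries, 2 sham SFA and 2 TAC SFA, came from mice on the low fat diet SFA, without that exchange. They entered the estimate of spread and a side-by-side comparison. Nothing in the labels states whether the replicates are different mice, and p-values therefore cover only the spread between these samples, which may be technical.

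Pressure overload makes ventricular muscle cells enlarge and return to genes that are typical of the fetal heart, among them natriuretic peptides, beta-myosin and skeletal alpha-actin. Fibroblasts respond by laying down collagens and matricellular proteins, and genes of fatty acid oxidation commonly lose expression. Branched-chain amino acids are broken down in heart mitochondria by a dehydrogenase complex that a kinase and a phosphatase regulate, which is of interest where the diet supplies amino acids in free form.

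Values below are the authors' normalized expression values, which are not read counts. The deposited values of the 4 libraries summed to 6134490 to 6298743, and 15264 to 15844 genes reached a value of 1. Mitochondrially encoded genes held 33.6% to 39.5% of the values. The left ventricular label matched its markers: Tnnt2, cardiac troponin T, lay between 34663 and 43869, and Myl7, the atrial light chain, between 1.28 and 42.95. Of the 49671 genes in the table, 16432 reached a value of 1 in at least 2 of the 8 libraries and were tested.

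The TAC SFA-EAA libraries differed from each other in base composition. Across 11387 genes, which are not independent replicates, the deviation of a gene from its mean over the 8 libraries fell with transcript GC content in sham SFA-EAA replicate 1 (Spearman correlation -0.59), sham SFA-EAA replicate 2 (-0.40) and TAC SFA-EAA replicate 2 (-0.70). In TAC SFA-EAA replicate 1 it rose (0.40), as it did in the 4 SFA libraries (0.32 to 0.48). In the bin of genes with the highest GC content, with a median of 60.7%, TAC replicate 1 lay 0.67 above the sham mean in log2 units and TAC replicate 2 lay at -0.32. Of 11307 genes with a mean of at least 10, 48.0% had the TAC libraries on opposite sides of the sham mean. A loess correction of every library for GC content lowered that share to 36.9%, and the correlation then lay between -0.09 and 0.07. Both the deposited and these GC-corrected values were therefore tested. Results below rest on the deposited values unless GC-corrected values are named.

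**Figure D1:**
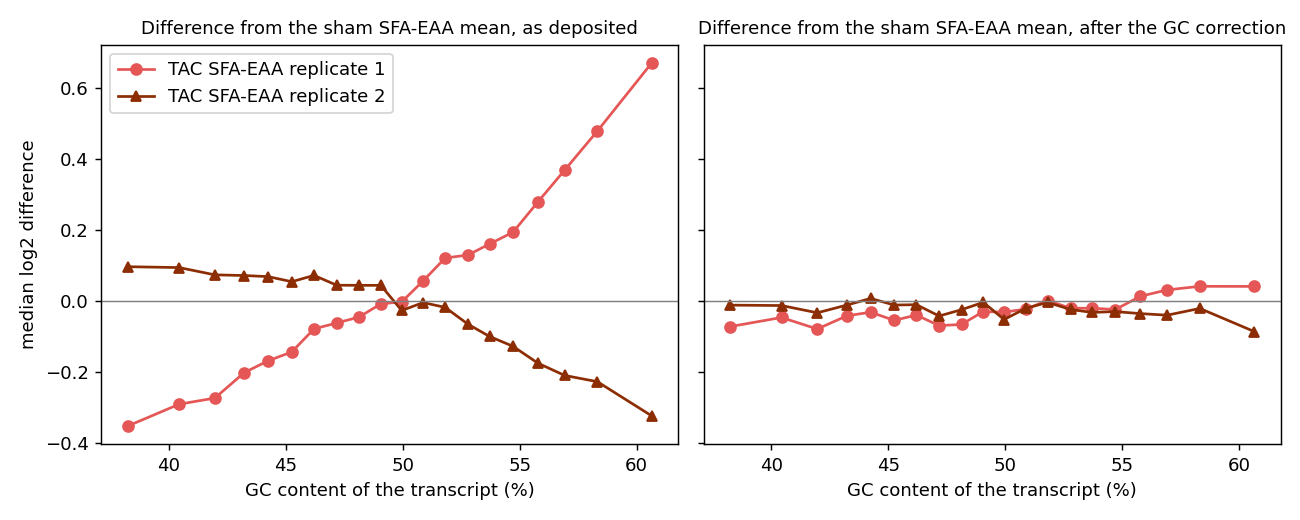
Median log2 difference of each TAC SFA-EAA library from the sham SFA-EAA mean (vertical axis) for genes binned by the GC content of their transcripts in percent (horizontal axis), as deposited on the left and after the GC correction on the right. As deposited, replicate 1 reached 0.67 and replicate 2 reached -0.32 in the bin of highest GC content, and after the correction both lines lay within 0.09 of 0.

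Few single genes passed as deposited, and those that did were a heart hormone and a cytokine receptor. Nppb, which encodes B-type natriuretic peptide, and Tnfrsf12a, the receptor of the cytokine TWEAK, rose in TAC hearts. They were the 2 genes called higher among 16432 (0.0122%) by limma at an adjusted p under 0.05, and none was called lower (0%). At an unadjusted p under 0.05 limma gave 798 higher genes (4.86%) and 610 lower genes (3.71%). With GC-corrected values these were 894 (5.44%) and 976 (5.94%), and at the adjusted threshold limma called 27 genes higher (0.164%) and 7 lower (0.0426%), and both genes called as deposited were among them. These calls use a spread shared by all groups. The GC-corrected log2 difference between replicates had an SD over genes of 0.43 in TAC and 0.33 in sham, so the shared spread may be too small here. Library weights and the 4 SFA-EAA libraries alone each gave 0 calls as deposited. Neither was run with GC-corrected values. Leaving out any 1 of the 8 libraries gave 0 calls as deposited. With GC-corrected values the number of higher genes then lay between 0, without sham SFA-EAA replicate 2, and 32, without TAC SFA replicate 2.

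All 34 genes called with GC-corrected values had no overlap between sham and TAC libraries as deposited. The same libraries gave the calls, so this follows largely from the selection and is no support for them. Over all tested genes, 18.5% had both TAC libraries above both sham libraries and 18% had both below. Of the 27 higher genes, 26 were protein coding. Their median transcript GC content was 52.7%, against 49.6% over all genes tested.

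**Figure D2:**
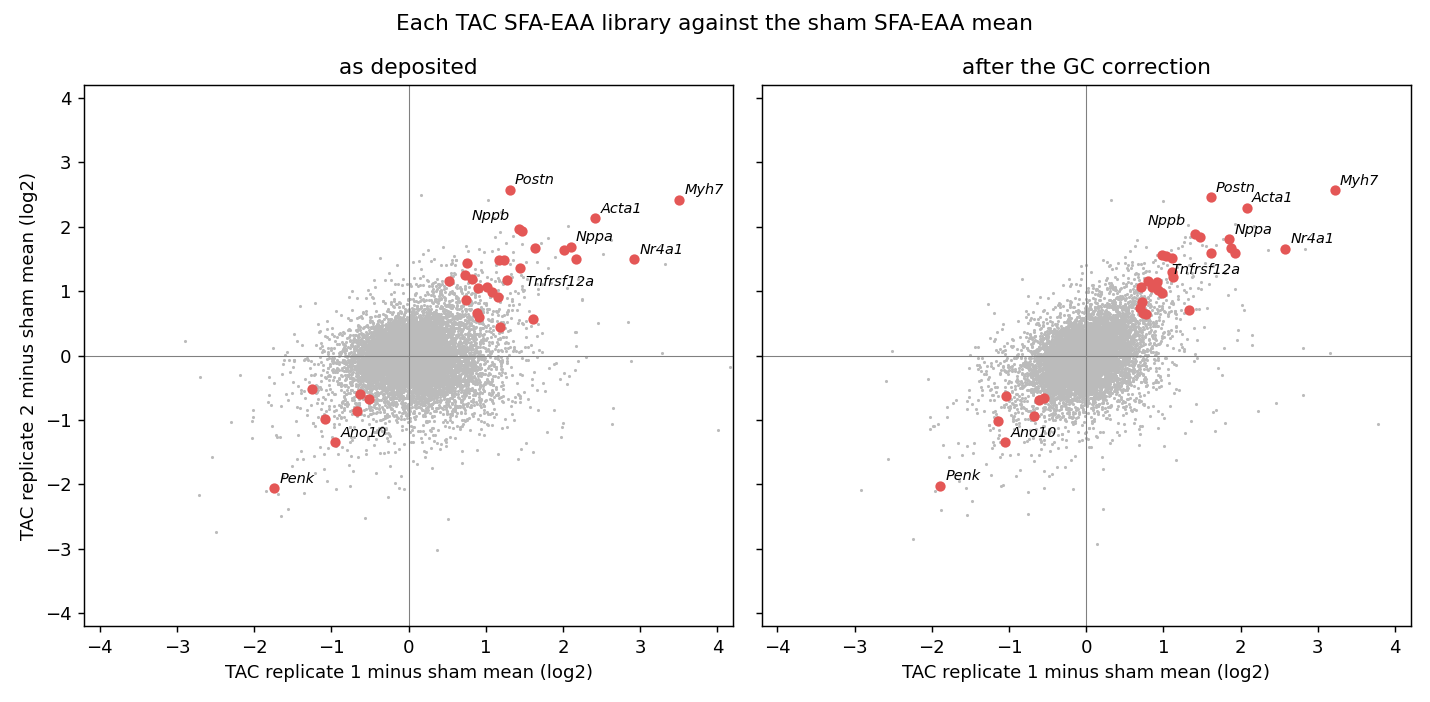
Log2 difference of TAC SFA-EAA replicate 1 (horizontal axis) and replicate 2 (vertical axis) from the sham SFA-EAA mean for 11304 genes (grey points), with 3 more beyond the axes, as deposited on the left and after the GC correction on the right. Red points are the 34 genes called with GC-corrected values, and Myh7, Acta1, Nr4a1, Postn and Nppa lie far to the upper right in both panels.

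The promoters of 4 genes that rose in TAC hearts with GC-corrected values are shown. They include both genes called as deposited, and no rule on the values picked Nppa and Ankrd1 from the other called genes. Each window is the 250 bases before the RefSeq start on GRCm38.p6, read 5′ to 3′ on the gene's strand. The windows are chr4:147985650-147985899 on the plus strand for Nppb, chr4:148000472-148000721 on the plus strand for Nppa, chr17:23677450-23677699 on the minus strand for Tnfrsf12a and chr19:36119845-36120094 on the minus strand for Ankrd1. Capitals mark GATA, the core that GATA factors bind, CATTCC, the core of the muscle element bound by TEAD factors, and TATAAA, the TATA box, each searched on both strands together with the AP-1 element TGANTCA.
Nppb: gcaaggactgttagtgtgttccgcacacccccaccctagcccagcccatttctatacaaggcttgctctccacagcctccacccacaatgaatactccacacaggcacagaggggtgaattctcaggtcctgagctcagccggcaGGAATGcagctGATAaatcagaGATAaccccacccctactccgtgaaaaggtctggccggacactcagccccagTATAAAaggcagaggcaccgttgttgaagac
Nppa: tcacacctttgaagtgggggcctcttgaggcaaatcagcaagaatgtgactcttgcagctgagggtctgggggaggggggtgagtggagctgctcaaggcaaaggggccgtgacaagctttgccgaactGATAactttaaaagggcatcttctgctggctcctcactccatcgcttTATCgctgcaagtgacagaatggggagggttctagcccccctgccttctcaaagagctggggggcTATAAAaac
Tnfrsf12a: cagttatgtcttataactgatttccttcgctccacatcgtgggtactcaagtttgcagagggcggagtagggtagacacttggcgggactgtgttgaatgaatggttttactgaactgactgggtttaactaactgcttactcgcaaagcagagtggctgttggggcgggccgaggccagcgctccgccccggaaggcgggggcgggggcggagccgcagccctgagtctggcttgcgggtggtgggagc
Ankrd1: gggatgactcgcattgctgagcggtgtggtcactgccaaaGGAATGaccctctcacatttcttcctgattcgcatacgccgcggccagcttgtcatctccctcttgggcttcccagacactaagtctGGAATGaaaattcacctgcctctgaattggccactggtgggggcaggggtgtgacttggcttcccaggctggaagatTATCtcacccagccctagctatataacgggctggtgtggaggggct
The Nppb window held GATA at positions -94 to -91 and -83 to -80, CATTCC on the minus strand at -105 to -100 and TATAAA at -31 to -26, counted from the RefSeq start. The authors' table places the start of Nppb 112 bases upstream of the RefSeq start, so the last part of this window lies inside the gene by their coordinates. The Nppa window held GATA on each strand and TATAAA at -9 to -4, closer to the start than in Nppb. The Ankrd1 window held CATTCC at 2 places and GATA at 1. None of these motifs occurs in the Tnfrsf12a window. Of the 27 genes called higher, 22 had a RefSeq promoter, and GATA occurred in 16 of these, CATTCC in 6, TATAAA in 4 and TGANTCA in 1. Over 32851 promoters of the same length the shares were 53.6%, 12.6%, 12.4% and 6.75%. A match of letters is a description and shows no binding.

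With GC-corrected values, the natriuretic and fetal program had the most called members among the 31 gene lists. The lists were chosen with earlier results of these data known, so this ranking is a description and not a test. Of 24 tested members, 9 rose with GC-corrected values (0.164% of all genes), 1 rose as deposited and none fell, and 15 had both TAC libraries above both sham libraries as deposited (18.5% of all genes). The median log2 fold change on the log2(value + 1) scale was 0.51 as deposited and 0.44 with GC-corrected values, beside 0.00 and -0.03 over all genes tested. As deposited it was 0.66 in TAC replicate 1 and 0.43 in TAC replicate 2, and with GC-corrected values 0.45 and 0.46.

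Nppb (ENSMUSG00000029019, chromosome 4, 147985788 to 147987205, GRCm38) stood at 1122 and 942.4 in the sham libraries and at 2771 and 4019 in the TAC libraries. Both TAC libraries lay more than 2-fold above both sham libraries. The fold was 3.24, with a log2 fold change of 1.70 (SE 0.18, limma adjusted p = 0.039, and adjusted p = 0.0021 with GC-corrected values). With 1 library left out, its adjusted p as deposited ranged from 0.072 to 0.844. With GC-corrected values it stayed below the threshold in 7 of 8 such fits, and was 0.084 without sham SFA-EAA replicate 2.

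Nppa, the gene of atrial natriuretic peptide, lies 13516 bases downstream of Nppb (ENSMUSG00000041616, chromosome 4, 148000722 to 148002079). It stood at 1025 and 1046 in sham and at 4437 and 3343 in TAC. The sham libraries were nearly equal and both TAC libraries were well above them. The 3.72-fold difference did not pass as deposited (log2 fold change 1.89, SE 0.28, limma adjusted p = 0.12) and passed with GC-corrected values (adjusted p = 0.0055).

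Contractile genes of the fetal ventricle had the largest folds of those named in the group. Myh7, the slow beta-myosin heavy chain (ENSMUSG00000053093, chromosome 14, 54970688 to 54994634), stood at 686.5 and 461.1 in sham and at 6402 and 3016 in TAC. The TAC libraries differed from each other by more than 2-fold, yet both exceeded the higher sham library by more than 4-fold. The fold was 7.80 (limma adjusted p = 0.12, and adjusted p = 0.0055 with GC-corrected values). Acta1, skeletal alpha-actin, stood at 1585 and 661.2 in sham and at 5475 and 4484 in TAC, a 4.84-fold difference (adjusted p = 0.175, and 0.0364 with GC-corrected values). Its sham libraries were more than 2-fold apart, and with GC-corrected values it was called in 2 of the 8 fits that left out a library.

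Other called genes of heart muscle followed, not all of them members of that list. Ankrd1, a nuclear and titin-associated ankyrin repeat protein, stood at 6420 and 3568 in sham and at 14950 and 15169 in TAC (3.15-fold, GC-corrected limma adjusted p = 0.0214). Synpo2l, a Z-disc protein, stood at 766.1 and 569.4 in sham and at 1474 and 1242 in TAC (2.05-fold, GC-corrected adjusted p = 0.0295). A further 4 genes called with GC-corrected values fell outside the naming rule and were chosen after their values were seen. They were Xirp2, which binds actin at intercalated discs, with a log2 fold change of 0.99 as deposited, Nrap, a protein of myofibril assembly, with 0.75, Ankrd23, a relative of Ankrd1, with 1.09, and Abra, an actin-binding protein of striated muscle, with 0.85.

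The adult counterparts of these genes showed no called change. Myh6, the alpha-myosin heavy chain of the adult mouse ventricle, stood at 61544 and 75822 in sham and at 102083 and 51541 in TAC. The TAC libraries lay on both sides of the sham libraries, and its log2 fold change of 0.09 turned to -0.41 without TAC SFA-EAA replicate 1. Of 15 tested genes of adult contraction, none was called by limma with either set of values. As deposited 2, Myom1 and Mybpc3, had an unadjusted p under 0.05, both higher (4.86% of all genes). With GC-corrected values 3 were higher at that level (5.44% of all genes) and 1 was lower (5.94%).

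**Figure D3:**
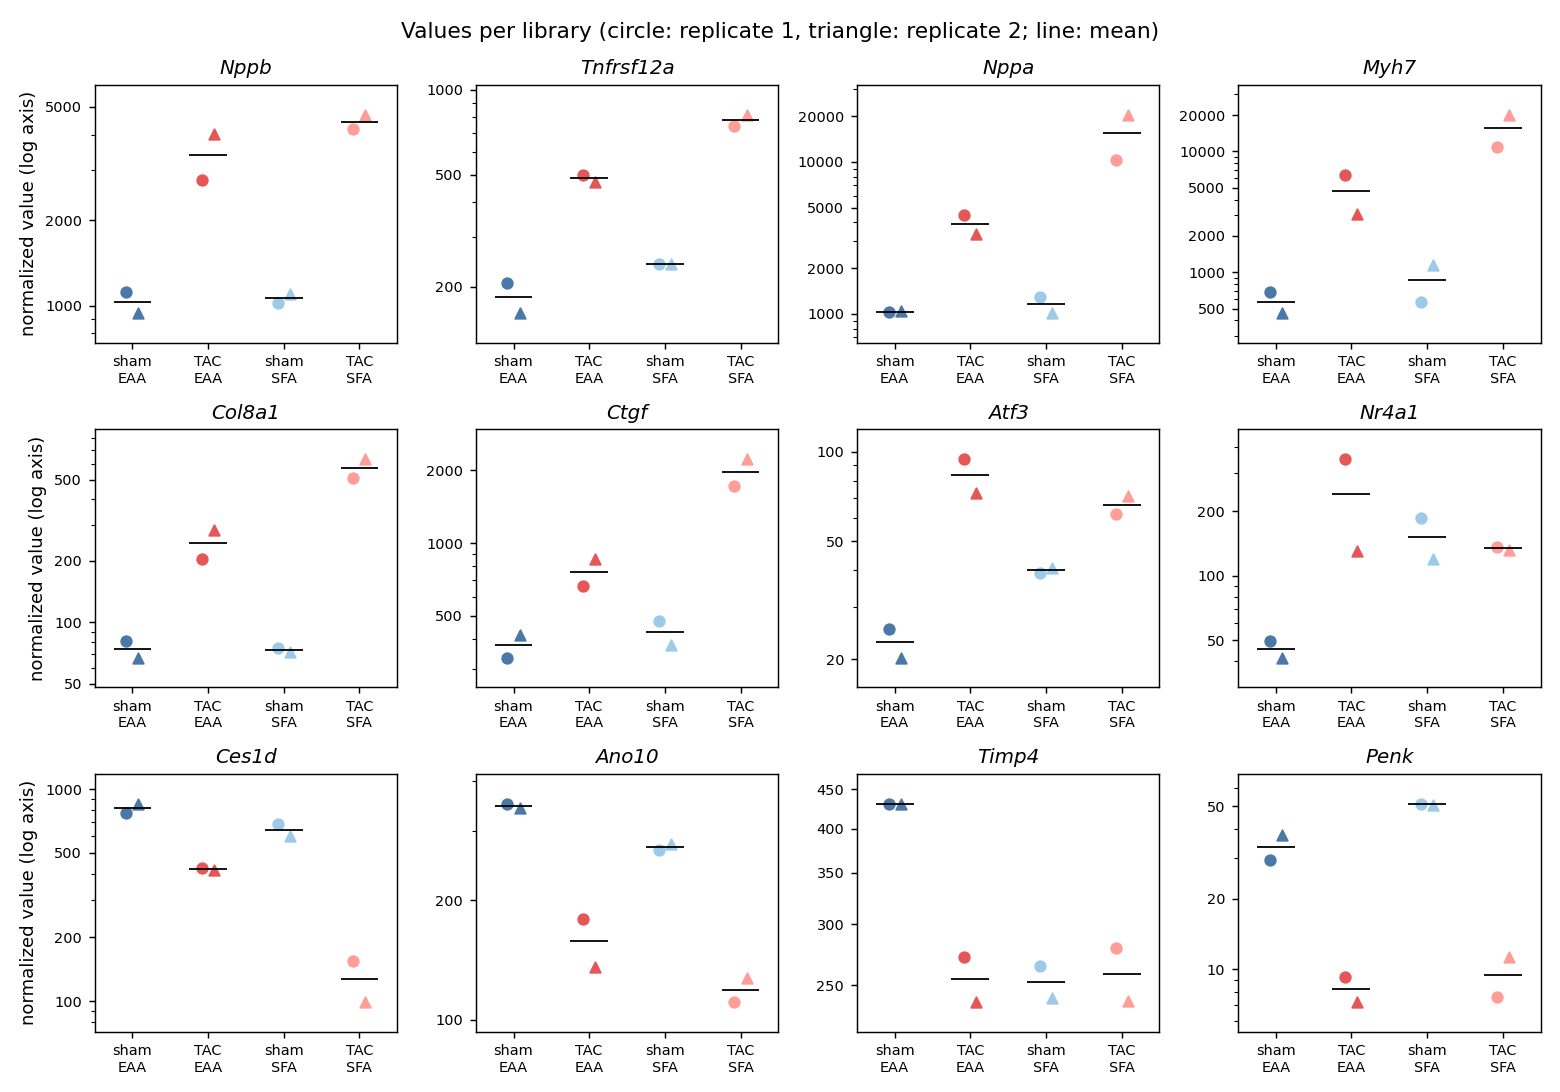
Values of 12 genes as deposited (log scale, vertical) by group and library (horizontal), where EAA stands for SFA-EAA, circles are replicate 1, triangles are replicate 2 and lines are group means, n = 2. Nppb and Tnfrsf12a have both TAC points above both sham points under either diet, and Timp4 stands at 430.3 and 431 in sham SFA-EAA, above the other 6 libraries.

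Tnfrsf12a was the called gene outside that program. The receptor (ENSMUSG00000023905, chromosome 17, 23675447 to 23677449) stood at 206.8 and 161.2 in sham and at 499.8 and 469 in TAC. Both TAC libraries were more than 2-fold above both sham libraries. The fold was 2.64, with a log2 fold change of 1.40 (SE 0.14, limma adjusted p = 0.039, and adjusted p = 0.0138 with GC-corrected values). With 1 library left out, its adjusted p as deposited ranged from 0.0848 to 0.686, and with GC-corrected values it stayed below the threshold in 6 of 8 fits. It was the only called gene among 16 tested genes of the TWEAK receptor pathway, which also hold adaptor and NF-kappaB genes. The pathway's median log2 fold change was 0.16 as deposited, with 0.40 in TAC replicate 1 and 0.03 in TAC replicate 2. With GC-corrected values it was 0.10, with 0.17 and 0.01. As deposited, 14 of its 16 genes had a positive value, where 50% of all tested genes did. Of the 16, 3 had both TAC libraries above both sham libraries (18.5% of all genes). Nfkbie, an inhibitor of NF-kappaB, stood at 3.66 and 3.56 in sham and at 13.3 and 6.3 in TAC without passing (adjusted p = 0.527).

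Matrix genes were higher in TAC hearts in most members, with few called. Of 21 tested collagen genes, 1 rose with GC-corrected values (0.164% of all genes), 14 had an unadjusted p under 0.05 as deposited and were higher (4.86% of all genes), and 18 had both TAC libraries above both sham libraries (18.5% of all genes). The median log2 fold change of the collagens was 0.72 as deposited, 0.84 in TAC replicate 1 and 0.44 in TAC replicate 2, and with GC-corrected values it was 0.62 in each. The called collagen was Col8a1, a short-chain network collagen, at 80.7 and 67.3 in sham and 205.4 and 284.1 in TAC. Neither TAC library came near the sham range, and the 3.25-fold difference missed the threshold as deposited (limma adjusted p = 0.0575) and passed with GC-corrected values (adjusted p = 0.003).

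The fibrillar collagens did not pass. Col3a1 stood at 525.6 and 657 in sham and at 1014 and 1396 in TAC (2.02-fold, limma adjusted p = 0.304, and 0.0822 with GC-corrected values). Col1a1 stood at 139 and 162 in sham and at 374.5 and 165 in TAC, so that TAC replicate 2 was barely above the sham libraries (1.65-fold, adjusted p = 0.656). 

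Of 26 matricellular and matrix growth factor genes, 3 rose with GC-corrected values (0.164% of all genes) and none fell (0.0426%). Postn, the fibroblast protein periostin, stood at 224.2 and 154.7 in sham and at 463 and 1113 in TAC (3.84-fold, limma adjusted p = 0.304, and 0.0289 with GC-corrected values). Its difference was larger in TAC replicate 2, against the order seen for Myh7. Ctgf, connective tissue growth factor, stood at 335.3 and 417.5 in sham and at 664.1 and 856.3 in TAC (2.01-fold, GC-corrected adjusted p = 0.0342). Cyr61, its relative in the same family, stood at 133.9 and 138.6 in sham and at 289.3 and 270.3 in TAC (2.05-fold, GC-corrected adjusted p = 0.0295). Cilp, a cartilage and heart matrix protein, and Ltbp2, a protein of microfibrils, had folds of 4.14 and 4.63 and did not pass with either set of values (GC-corrected adjusted p = 0.0724 and 0.0687).

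Genes of matrix crosslinking and turnover moved in both directions, 2 higher (0.164% of all genes) and 1 lower (0.0426%) of 28 with GC-corrected values. Fbn1, the microfibril protein fibrillin 1, stood at 181.2 and 184.7 in sham and at 433.1 and 513.2 in TAC (2.57-fold, GC-corrected limma adjusted p = 0.0148). Adamts2, which trims procollagen, stood at 48.3 and 47.1 in sham and at 108.9 and 134.8 in TAC (2.51-fold, GC-corrected adjusted p = 0.0309). Timp4, a metalloproteinase inhibitor abundant in heart, fell from 430.3 and 431 in sham to 271.8 and 237.5 in TAC (log2 fold change -0.76, GC-corrected adjusted p = 0.0295). Timp1, an inhibitor of the same family, stood at 12.1 and 9.61 in sham and at 36.0 and 36.6 in TAC without passing (limma adjusted p = 0.323).

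Other secreted proteins had small p-values. Cpxm2, a carboxypeptidase-like protein, stood at 128.1 and 158.2 in sham and at 346.9 and 321.3 in TAC (2.34-fold, limma adjusted p = 0.079, and 0.0055 with GC-corrected values). Igfbp7, which binds insulin-like growth factors, stood at 429.2 and 431.1 in sham and at 752.2 and 771.6 in TAC. The replicates of each group were close, yet its limma adjusted p was 0.079 as deposited and 0.165 with GC-corrected values. Pi16, a peptidase inhibitor of fibroblasts, stood at 109.7 and 110.4 in sham and at 496.5 and 311.8 in TAC (3.55-fold, GC-corrected adjusted p = 0.0082). Of 16 fibroblast markers Pi16 was the only one called with GC-corrected values, and the median of that list was 0.20 as deposited. In these bulk samples more cells of a type and more RNA per cell cannot be told apart, for the matrix genes as for every other list.

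Immediate early transcription factors had higher values in TAC in most members. Of 20 tested, 2 rose with GC-corrected values (0.164% of all genes), 7 had an unadjusted p under 0.05 as deposited and were higher (4.86% of all genes), and none was lower at that level. The median log2 fold change of the list was 0.51, with 0.80 in TAC replicate 1 and 0.29 in TAC replicate 2, and with GC-corrected values 0.46 and 0.32. Atf3, a stress-induced factor, stood at 25.3 and 20.2 in sham and at 94.4 and 72.7 in TAC (3.55-fold, limma adjusted p = 0.0809, and 0.0082 with GC-corrected values). Nr4a1, an orphan nuclear receptor, stood at 49.7 and 41.6 in sham and at 349.6 and 129.9 in TAC (4.61-fold, GC-corrected adjusted p = 0.0128). TAC replicate 1 was more than 2-fold above TAC replicate 2 for this gene. Ier5, an early response gene, and Socs2, an inhibitor of cytokine and growth hormone signalling, had log2 fold changes of 1.05 and 0.97 and rose with GC-corrected values (adjusted p = 0.0184 and 0.0138).

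The 7 genes that fell with GC-corrected values had varied roles, and none of them was called as deposited. With the GC correction and the replicate block only 2 genes were called lower. Ano10, a member of the anoctamin family of membrane proteins, stood at 350.7 and 343 in sham and at 179.5 and 136.1 in TAC (log2 fold change -1.15, limma adjusted p = 0.12, and 0.0055 with GC-corrected values). Penk, the precursor of enkephalin peptides, stood at 29.4 and 37.6 in sham and at 9.22 and 7.23 in TAC (log2 fold change -1.90, GC-corrected adjusted p = 0.0364). Tfdp2, a partner of E2F factors in cell cycle control, stood at 584 and 584.5 in sham and at 378.6 and 387.4 in TAC (log2 fold change -0.61, GC-corrected adjusted p = 0.0397). Both groups were tight for Tfdp2, and the others were Timp4, Syde2, Amd1 and the transcript 9030617O03Rik. Amd1, which makes the aminopropyl donor of polyamine synthesis, stood at 708.2 and 622.7 in sham and at 279.2 and 465.8 in TAC (log2 fold change -0.88, GC-corrected adjusted p = 0.0483).

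Genes of fatty acid uptake and oxidation were lower in TAC in nearly every member, and none was called with either set of values. Of 34 tested, 33 had a negative log2 fold change, 22 had both TAC libraries below both sham libraries (18% of all genes) and 11 had an unadjusted p under 0.05 as deposited and were lower (3.71% of all genes). With GC-corrected values 23 were lower at that level (5.94% of all genes). The median was -0.28, with -0.19 in TAC replicate 1 and -0.36 in TAC replicate 2. Ces1d, a carboxylesterase that hydrolyses stored lipid, had the smallest p-value of the list, at 769 and 853.4 in sham and 425.6 and 415.6 in TAC. The 4 values formed 2 tight pairs, and its log2 fold change of -0.94 missed the threshold (limma adjusted p = 0.29, and 0.0545 with GC-corrected values). Decr1, an auxiliary enzyme for unsaturated fatty acids, stood at 3746 and 3582 in sham and at 2748 and 2710 in TAC, with a log2 fold change of -0.42 (limma adjusted p = 0.4).

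Respiratory chain and citrate cycle genes had the same sign with smaller medians. Of 63 nuclear genes of oxidative phosphorylation 57 had a negative log2 fold change, and the median was -0.18, with -0.02 in TAC replicate 1 and -0.31 in TAC replicate 2. After the GC correction these medians were -0.23, -0.11 and -0.34. Of 25 genes of the citrate cycle and pyruvate oxidation 22 were negative, with a median of -0.14. None of either list was called by limma, and 9 and 4 had an unadjusted p under 0.05 as deposited and were lower (3.71% of all genes). With GC-corrected values these numbers were 24 and 6 (5.94% of all genes). Atp5l, a subunit of ATP synthase, stood at 864.2 and 834.1 in sham and at 588.9 and 541.8 in TAC (limma adjusted p = 0.337). Glucose uptake and glycolysis genes had a median of -0.03. Among them Pfkfb1, which sets the level of an activator of glycolysis, stood at 83.0 and 94.6 in sham and at 33.8 and 28.5 in TAC, and Pfkp, a phosphofructokinase, stood at 262.2 and 219.7 in sham and at 347.9 and 351.4 in TAC, and neither passed (adjusted p = 0.382 and 0.402).

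Branched-chain amino acid catabolism followed the same pattern, without a called gene. Of 24 tested genes 23 had a negative log2 fold change, 13 had both TAC libraries below both sham libraries (18% of all genes) and 5 had an unadjusted p under 0.05 as deposited and were lower (3.71% of all genes), against 8 with GC-corrected values (5.94%). The median was -0.21, with -0.27 in TAC replicate 1 and -0.18 in TAC replicate 2, and with GC-corrected values the order of the replicates turned, at -0.20 and -0.25. Ppm1k, a phosphatase that switches on the ketoacid dehydrogenase complex, stood at 626.8 and 639 in sham and at 460.7 and 556.6 in TAC (log2 fold change -0.32, limma adjusted p = 0.567). Bckdha, a subunit of that dehydrogenase, stood at 1255 and 1644 in sham and at 1898 and 780.8 in TAC. Its TAC libraries were the highest and the lowest of the 4. Its log2 fold change of -0.24 was 0.40 without TAC SFA-EAA replicate 2, and -0.003 there with GC-corrected values. Bcat2, the mitochondrial transaminase, and Bckdk, the kinase that inactivates the dehydrogenase, had log2 fold changes of -0.21 and -0.02. Each also changed sign with a library left out, Bcat2 only as deposited.

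Amino acid transport and sensing genes and the integrated stress response, both tied to amino acid supply, showed no called gene. Their medians were 0.11 in each of 23 tested genes. Slc7a7, a subunit of a cationic amino acid exporter, stood at 4.97 and 3.73 in sham and at 12.3 and 14.2 in TAC, and Eif4ebp1, the translation repressor controlled by mTOR, at 202.6 and 214.9 in sham and 386.7 and 264.8 in TAC (limma adjusted p = 0.39 and 0.402). Ppp1r15a, which relieves the block of translation in that response, stood at 73.6 and 86.6 in sham and at 128.3 and 114.5 in TAC (adjusted p = 0.424).

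Calcium handling and ion channel genes gave no called gene. Atp2a2, which pumps calcium into the sarcoplasmic reticulum, stood at 80118 and 78296 in sham and at 64114 and 66916 in TAC, with a log2 fold change of -0.27 (limma adjusted p = 0.757). The groups did not overlap, and the difference was small against the pooled spread. Of 19 channel and connexin genes, 5 had an unadjusted p under 0.05 as deposited and were lower (3.71% of all genes) and 1 was higher (4.86%). Kcnj3, an inward rectifier potassium channel, stood at 483.2 and 396.6 in sham and at 291.4 and 331.8 in TAC, and Kcnv2, a modifier subunit of potassium channels, at 63.8 and 72.4 in sham and 44.0 and 35.7 in TAC (adjusted p = 0.43 and 0.492).

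**Figure D4:**
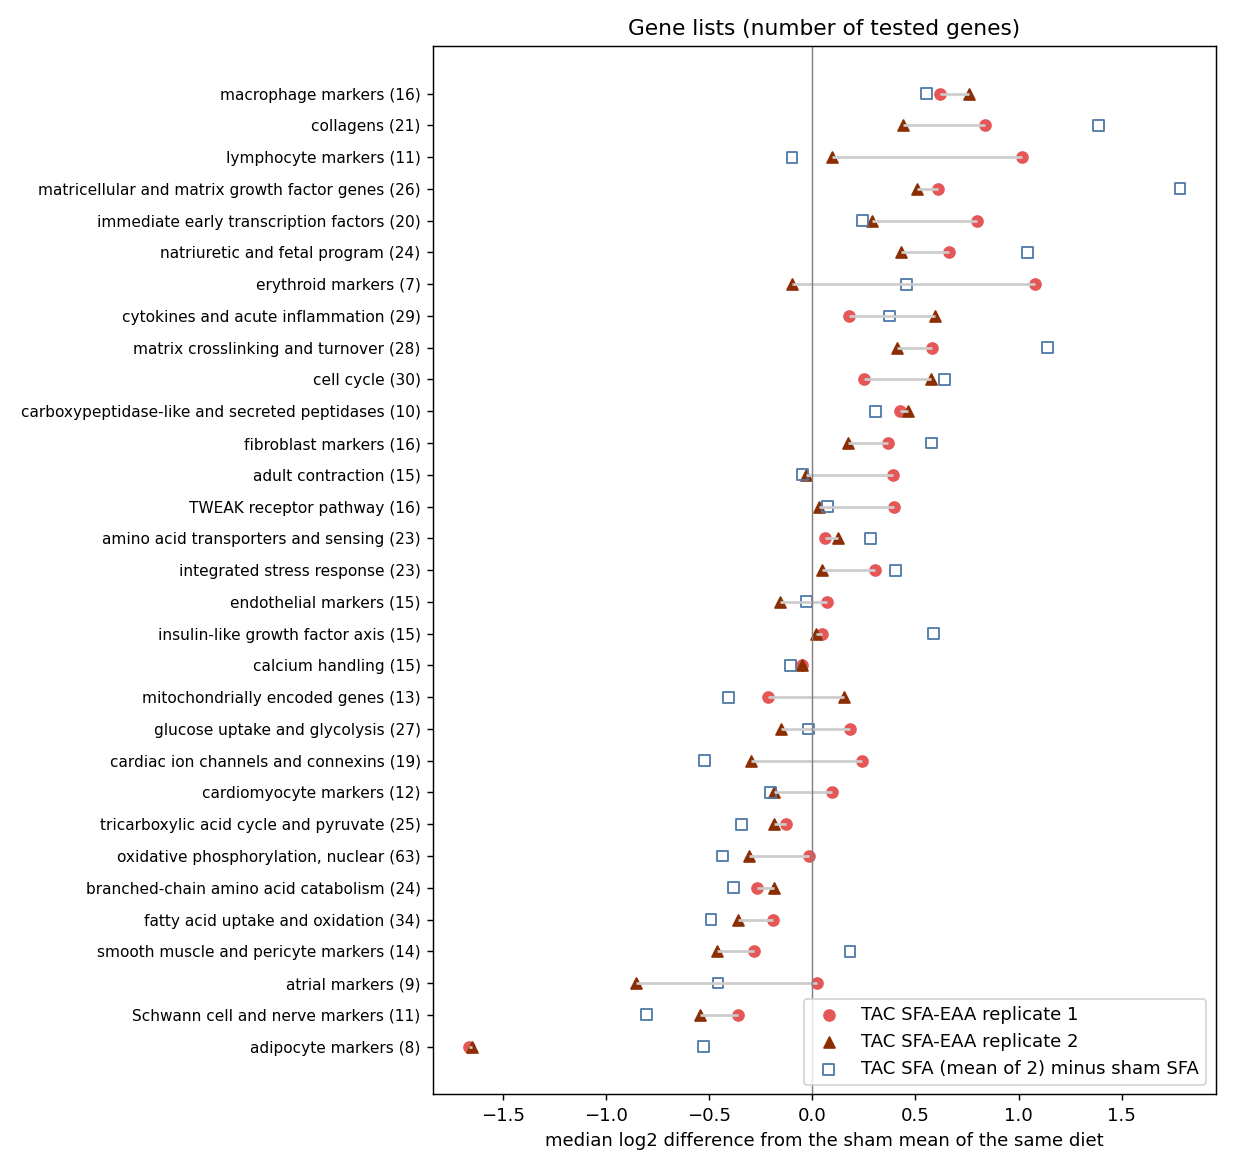
Median log2 difference from the sham mean of the same diet (horizontal axis) for 31 gene lists (vertical axis, number of tested genes in brackets), with circles for TAC SFA-EAA replicate 1, triangles for replicate 2 and squares for the mean of both TAC SFA libraries. The collagen list lies at 0.84 and 0.44 in the TAC SFA-EAA libraries, and the fatty acid list at -0.19 and -0.36.

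Markers of other cells also differed between the groups. None of 16 macrophage markers was called by limma with either set of values, 9 had an unadjusted p under 0.05 as deposited and were higher (4.86% of all genes), and 13 had both TAC libraries above both sham libraries (18.5% of all genes). Their summed values were 1423 and 1557 in sham and 1979 and 2546 in TAC, with a median log2 fold change of 0.76. C1qb, a complement component of macrophages, stood at 134.1 and 143.4 in sham and at 267.8 and 235.5 in TAC (limma adjusted p = 0.211). Among 29 cytokine and acute inflammation genes 4 were higher at an unadjusted p under 0.05 as deposited (4.86% of all genes) and none was called, and the part of the macrophage markers in this was not tested.

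Smooth muscle, nerve and fat markers had negative medians. Of 14 smooth muscle and pericyte markers 10 had a negative and 4 a positive log2 fold change, and 5 had an unadjusted p under 0.05 as deposited and were lower (3.71% of all genes), with a median of -0.31. Their summed values, 15355.5 and 15709.6 in sham and 18271.9 and 14220.8 in TAC, overlapped between the groups. Myh11, smooth muscle myosin, stood at 306.3 and 266.2 in sham and at 138.5 and 105.2 in TAC, and Acta2, smooth muscle actin, at 603.7 and 562.8 in sham and 253.6 and 390.3 in TAC (limma adjusted p = 0.401 and 0.492). Of 11 Schwann cell and nerve markers 7 had both TAC libraries below both sham libraries (18% of all genes), and none was called by limma. Of the 11, 8 had a negative and 3 a positive log2 fold change. The summed nerve values, 519.8 and 446.9 in sham and 392.0 and 499.0 in TAC, overlapped between the groups. Of 8 adipocyte markers all had a negative log2 fold change, with a median of -1.67, but Plin1 and Retn were below 5 in every SFA-EAA library and listed at 0 in both TAC libraries. Erythroid markers, summed, stood at 1548 and 1956 in sham and at 3733 and 1046 in TAC, so that only TAC replicate 1 was high. Cardiomyocyte markers had a median of -0.08 and endothelial markers of 0.04. How far these marker differences bear on the genes above was not tested.

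The same operation under SFA gave more called genes, 137 higher (0.834%) and 68 lower (0.414%) of 16432 as deposited. The diets shared no library, though they shared the estimate of spread. Of the 34 genes called under SFA-EAA with GC-corrected values, 30 had the same sign under SFA as deposited (31 with GC-corrected values), and 22 were called there as deposited in the same direction. In 18 of the 30 the log2 fold change was larger in size under SFA. Among these were Nppa with 3.66 against 1.89, Ctgf with 2.20 against 1.01 and Col8a1 with 2.94 against 1.70. In the rest of the 30 it was larger in size under SFA-EAA. Among those were Atf3, with 1.83 under SFA-EAA against 0.72 under SFA, and Socs2, with 0.97 against 0.29. The difference between the diets was tested as an interaction, in which limma called 0 of 16432 genes (0%) as deposited, with 902 (5.49%) at an unadjusted p under 0.05, and 0 with GC-corrected values, with 1346. The unadjusted GC-corrected limma interaction p was 6.89e-05 for Nppa, 0.000219 for Ctgf and 0.000212 for Col8a1, with adjusted values of 0.136, 0.149 and 0.149. For Atf3 and Socs2 it was 0.00366 and 0.00238, with adjusted values of 0.352 and 0.322.

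As deposited, 4 of the 34 genes had the opposite sign under SFA: Nr4a1, Timp4, Tfdp2 and Gm28438, which is annotated as an unprocessed pseudogene. Timp4 was near 0 under SFA and shared the sign with GC-corrected values. Gm28438, named after its values were seen, had log2 fold changes of 1.10 under SFA-EAA and -0.45 under SFA. Nr4a1 stood at 185.4 and 119.2 in sham SFA and at 135.9 and 132.2 in TAC SFA, which is the range of TAC SFA-EAA replicate 2, and the sham SFA-EAA libraries were the lowest of the 8. Timp4 stood at 264.4 and 240.8 in sham SFA and at 279 and 238.2 in TAC SFA, so the sham SFA-EAA libraries stood above the other 6. Tfdp2 showed the same arrangement, at 312.7 and 290.4 in sham SFA and 338.7 and 362.4 in TAC SFA. For Nr4a1, Timp4 and Tfdp2 the unadjusted GC-corrected limma interaction p was 8.46e-05, 0.00118 and 0.00016, with adjusted values of 0.136, 0.254 and 0.147. These genes were picked here for their opposite sign. The sham libraries of the diets also had opposite GC trends, with correlations of -0.59 and -0.40 under SFA-EAA and 0.46 and 0.48 under SFA. The part of that trend in the sham values as deposited was not tested. Ces1d, outside the called genes, had a log2 fold change of -2.37 under SFA against -0.94, with its sham values at 687 and 601.7 under SFA.

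**Figure D5:**
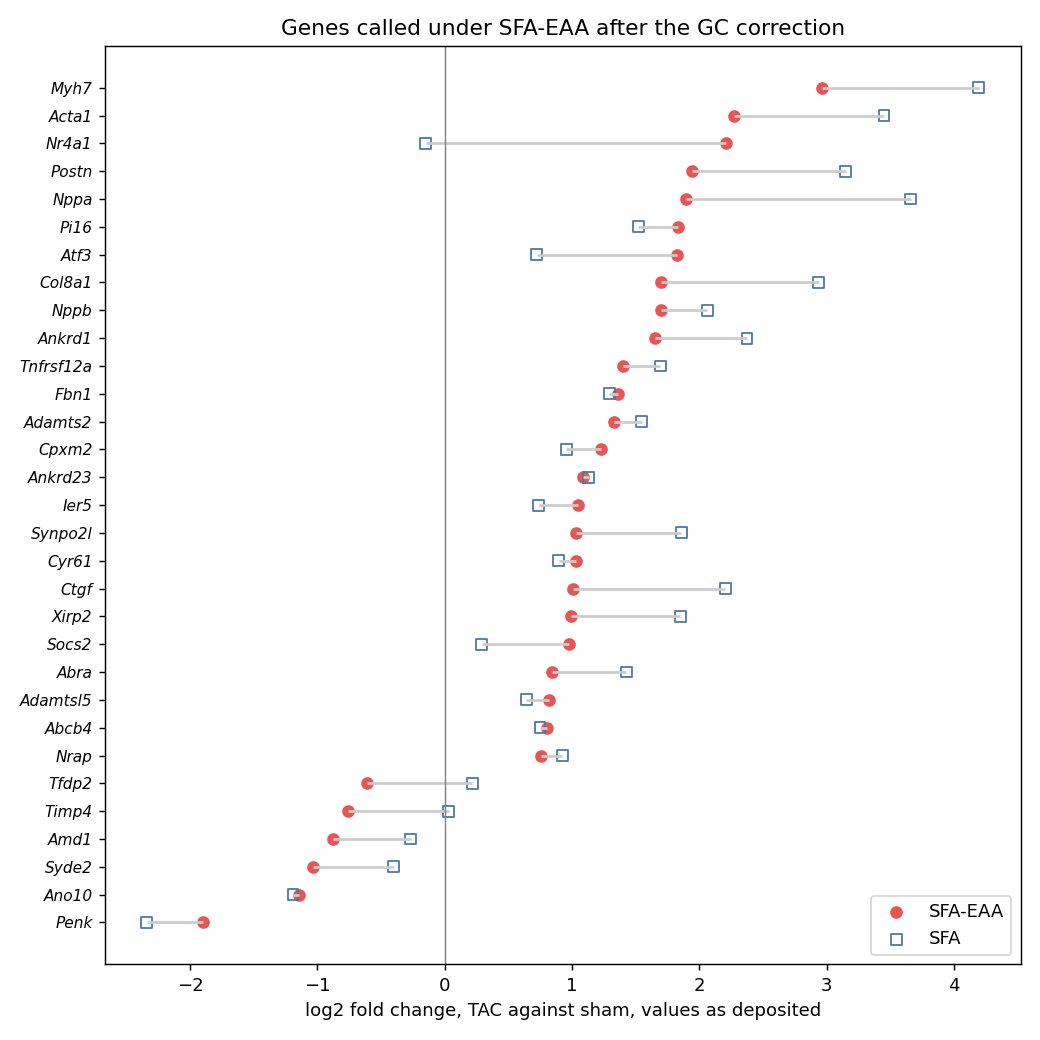
Log2 fold change of TAC against sham, values as deposited (horizontal axis), for 31 named genes called under SFA-EAA with GC-corrected values (vertical axis), with circles for SFA-EAA and squares for SFA. Nr4a1, Timp4 and Tfdp2 lie on opposite sides of 0 in the 2 diets, and Nppa lies at 1.89 under SFA-EAA and 3.66 under SFA.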

How the data were processed

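The authors used STAR 2.5 for alignment to GRCm38 and edgeR for normalization, per the submitters' processing notes. The deposited signal values are not whole numbers, and no count test was run. How reads were counted, with which annotation and whether by strand, is not given in the sources used here. Overlapping or near-identical genes may therefore exchange reads. Limma-trend (limma 3.58.1, R 4.3.3) was run on log2(value + 1), which understates changes of low genes. Tested were 16432 genes reaching 1 in 2 or more libraries, with 4 group means, a spread shared by the 4 groups and two-sided tests with Benjamini-Hochberg adjustment at 0.05. For the GC correction, the deviations of genes from their means over 8 libraries were smoothed in every library by loess (span 0.3) against the GC content of the longest GENCODE M21 transcript, known for 99.8% of tested genes, and the curve was subtracted. The value sums per library bound the depth, so genes near a value of 1 are imprecise.

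The members, the 31 gene lists and the tests were chosen with earlier results of these data known. Genes named are every gene called as deposited, the 20 smallest p-values among genes averaging 5 or more whose groups did not overlap, the 8 largest rises and 8 largest falls among those averaging 20 or more at an unadjusted p under 0.05, up to 2 members of each list, a panel of 15 genes, and up to 10 rises and 10 falls of the GC-corrected calls. Not every gene so named is printed. Promoters come from RefSeq on GRCm38.p6. Alternatives were another pseudocount, other filters, library weights, median-of-ratios and quantile scaling, the 4 libraries alone, the replicate block and each library left out. Data were simulated for this comparison with independent noise and no GC trend, and 50 of 16432 genes were changed at each fold. The test recovered 2, 20, 40 and 48 of 50 genes at 1.5-fold, 2-fold, 4-fold and 8-fold and made 6 false calls. With a GC trend added to TAC SFA-EAA replicate 1, it recovered 0, 16, 39 and 48. The real libraries differ from this setting, so these numbers do not give the power in them. Some results are not reported here.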

Additional observations from a re-analysis of the deposited data

How the results depend on the processing

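The count of 2 genes called higher as deposited was 0 with a pseudocount of 0.25, without a filter, with quantile normalization, with the 4 SFA-EAA libraries alone, with library weights and with the replicate block. It was 5 with a filter at a value of 5, 2 with median-of-ratios scaling, 27 with the GC correction, 19 with the GC correction and the replicate block, and 0 to 0 with each library left out. The count of 0 genes called lower was 7 with the GC correction and 2 with the GC correction and the replicate block. Of the other settings, only the replicate block and the left-out libraries were combined with the GC correction. GC-corrected counts with each library left out were 0 to 32 higher and 0 to 18 lower, and 0 to 18 for the interaction, which also had 3 calls with the GC correction and the replicate block. The labels do not pair samples by replicate number, and replicate deviations of the sham and TAC SFA-EAA libraries had a correlation of -0.22, so the block rests on a shared number alone. Where a left-out library leaves 1 in its group, that sample is assumed to vary like the others. The cause of these changes was not tested.

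Of 89 genes followed through 2312 alternatives, 85 kept their sign throughout. Many of these alternatives could not change a sign. Other filters, library weights, the replicate block, the SFA-EAA libraries alone and a left-out SFA library kept the deposited log2 fold change (1.402 for Tnfrsf12a). Many of the genes also had groups that did not overlap as deposited, and leaving out a library cannot then reverse the deposited sign. The share that kept its sign is therefore no measure of stability. With each library left out, log2 fold changes ranged from -0.406 to 0.58 for Myh6, -0.461 to 0.043 for Bcat2, -0.878 to 0.402 for Bckdha and -0.307 to 0.269 for Bckdk. The value of Myh6 turned to -0.064 without sham SFA-EAA replicate 1 (-0.094 with the GC correction) and to -0.406 without TAC SFA-EAA replicate 1 (-0.252 with the GC correction). Without TAC SFA-EAA replicate 2, that of Bcat2 was 0.043 (-0.159 with the GC correction) and that of Bckdha 0.402 (-0.003 with the GC correction). That of Bckdk was 0.109 without sham SFA-EAA replicate 2 (0.031 with the GC correction) and 0.269 without TAC SFA-EAA replicate 2 (0.123 with the GC correction).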

Other observations

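Genes of the mesothelium, the cell layer covering the heart, differed between sham and TAC SFA-EAA libraries in both directions, and this set was chosen after its values were seen. Upk3b, a uroplakin of mesothelium, stood at 15.3 and 12.8 in sham SFA-EAA and was listed at 0 in both TAC SFA-EAA libraries. Lrrn4, another mesothelial membrane protein, stood at 8.20 and 8.03 in sham and near 0 in both TAC libraries. Msln, mesothelin, stood at 11.9 and 14.9 in sham and at 2.06 and 4.63 in TAC. Wt1, a factor of epicardial cells, stood at 14.6 and 13.1 in sham and at 10.3 and 19.4 in TAC, so the groups overlapped. Aldh1a2, a retinoic acid enzyme of the same set, went the other way, at 8.63 and 10.6 in sham and 22.6 and 32.3 in TAC. None of these passed in limma with either set of values. Under SFA, Upk3b stood at 9.83 and 0.81 in sham and at 2.67 and 35.6 in TAC.

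Proteins secreted by the liver were highest in 1 library, also chosen after their values were seen. Alb, serum albumin, stood at 12.3 and 1.02 in sham SFA-EAA and at 277.3 and 28.1 in TAC SFA-EAA replicates 1 and 2. Apoa1, the main protein of high density lipoprotein, stood at 2.68 and 0.22 in sham and at 30.6 and 5.24 in TAC. TAC SFA-EAA replicate 1 also had the highest erythroid sum given above.

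Zbtb16, a zinc finger transcription factor, had the smallest interaction p-value among genes averaging 20 or more and was chosen for it. It stood at 294.7 and 381.2 in sham SFA-EAA, 146.7 and 227.4 in TAC SFA-EAA, 106.5 and 67.1 in sham SFA, and 382.5 and 368.1 in TAC SFA. The groups did not overlap under either diet, in opposite directions, and the interaction did not pass (limma adjusted p = 0.306, and 0.0605 with GC-corrected values).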
